A study of Mus musculus with 8 samples.

Results

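Asns, which encodes the glutamine-dependent asparagine synthetase, and 9 further genes of the ATF4 stress response were followed in mouse liver RNA. The 10 genes are Atf4, Atf5, Ddit3, Trib3, Nupr1, Asns, Psat1, Phgdh, Shmt2 and Mthfd2, taken by symbol from a table of 21358 genes, and all 10 were found. Liver RNA was sequenced in 4 libraries of a feeding glucose group (FG 93, 94, 95 and 96) and 4 of a starvation glucose group (SG 101, 103, 104 and 105). Both groups had been fasted every other day for 22 weeks, and the stated question was how glucose taken in the fed or the fasted state changes hepatic transcripts. The series title speaks of metabolic dysfunction, but the labels describe no diet, lesion or allele that would define such a model, and they give no genotype, strain, sex, age or time of sampling. How long before sampling each group last ate or took glucose is not stated either, and its effects cannot be told apart from those of the metabolic state. The unit throughout is FPKM, a fragment count divided by gene length and by the counted total of its library.

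The integrated stress response begins when kinases sensing amino acid shortage, misfolded protein in the endoplasmic reticulum, heme shortage or viral RNA phosphorylate the translation factor eIF2α. General translation then slows, while the mRNAs of ATF4 and ATF5 are translated more efficiently, so the level of either mRNA is not a measure of its protein. ATF4 binds as a dimer with C/EBP proteins to composite C/EBP-ATF elements and raises genes of amino acid synthesis, transport and tRNA charging; in the textbook response Asns is one of its most used reporters, and Ddit3, Trib3, Nupr1 and the serine pathway genes rise with it.

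The letters of such an element were looked up in the RefSeq start windows of GRCm38.p6, a patch release of the GRCm38 build in the submitters' notes, which run from 250 bases before to 50 bases after each transcript start. The motif searched was TGATGNAA, or TTNCATCA on the other strand. It was present in 1304 of 32851 windows (3.97%) and in 4.51% of the 27025 genes with a window. Of the 10 genes 3 held it, namely Asns, Nupr1 and Trib3, whose match lies past the start. The 10 were taken as genes of the ATF4 response, so this count is no independent result. The 6 stretches below were chosen because each holds a match to this motif and they belong to genes with different behaviour here: Asns rose in SG, Nupr1 and Fgf21 fell, and Chac1, Herpud1 and Tars did not pass the test. Capitals mark the motif, and each stretch is written 5′ to 3′ on the strand of its gene.
Asns: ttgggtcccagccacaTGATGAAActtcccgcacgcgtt
Nupr1: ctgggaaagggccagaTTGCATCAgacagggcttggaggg
Fgf21: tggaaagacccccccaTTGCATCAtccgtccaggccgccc
Chac1: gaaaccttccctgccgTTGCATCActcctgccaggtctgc
Herpud1: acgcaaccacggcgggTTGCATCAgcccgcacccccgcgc
Tars: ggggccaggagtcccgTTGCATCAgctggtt
The stretches lie at chr6:7693210-7693248 on the minus strand for Asns, chr7:126625557-126625596 on the minus strand for Nupr1 and chr7:45615606-45615645 on the minus strand for Fgf21. Those of Chac1 (chr2:119351033-119351072, plus strand), Herpud1 (chr8:94386301-94386340, plus strand) and Tars (chr15:11399659-11399689, minus strand) complete the set. In Asns the motif starts 23 bases before the transcript start and reads TGATGAAA, and it is the only one of the 6 in the TGATGNAA orientation. The other 5 share the letters TTGCATCA, so Asns also differs from them at the free base. Neither feature was particular to Asns among the further genes searched. The carrier gene Slc7a11 held a match in each orientation. The eIF2 subunit gene Eif2s3x, averaging 14.0 FPKM in FG and 11.1 in SG, held TTTCATCA, which is TGATGAAA read on the other strand. The windows of Atf4, Atf5, Ddit3, Psat1, Phgdh, Shmt2 and Mthfd2 hold no match, which says only that these letters are not in these windows. A match is a description of sequence and not evidence of binding.

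Asns rose in SG while 5 of the other genes fell, 1 of which, Psat1, passed the filter on low values through its FG libraries alone and so could be tested only as a gene higher in FG. With limma on log2(FPKM + 1), 8 of the 10 genes passed the filter of at least 1 FPKM in at least 4 libraries. At an adjusted p below 0.05 Asns was called higher, Atf5, Ddit3, Trib3, Psat1 and Nupr1 were called lower, and Atf4 and Shmt2 did not pass. Phgdh and Mthfd2 lay below the filter. Over all 9867 tested genes 19.4% were called, 3.73% higher and 15.6% lower, and the median log2 fold change was -0.14. The calls for Asns and Atf5 were kept in all 8 fits that left out 1 library, whereas each of the other 4 was lost in at least 4 of them. The 5 lower calls became 1 without FG 93, SG 103 or SG 105, 2 without FG 95 or SG 104 and 3 without FG 96. After median-ratio scaling, which moved the all-gene median to 0.006 and gave 545 higher and 499 lower calls against 368 and 1544 before it, Asns and Atf5 were still called and Psat1, Nupr1, Ddit3 and Trib3 were not (adjusted p = 0.0503, 0.0637, 0.0666 and 0.0734 in limma).

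**Figure D1:**
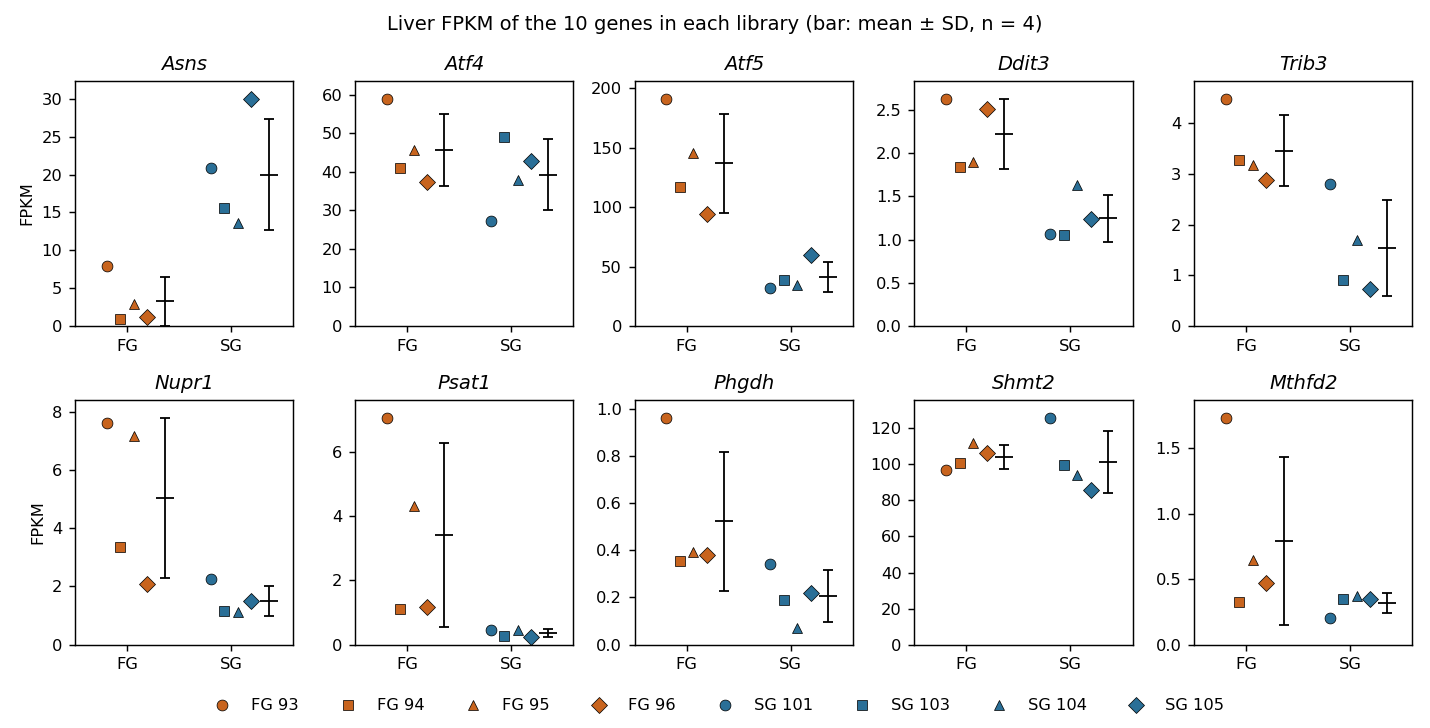
FPKM of the 10 genes (vertical axes, linear, each with its own range) in the 4 FG and 4 SG libraries, 1 symbol per library, with the mean and SD of each group beside them. The 4 SG values of Asns, 13.5 to 29.98 FPKM, lie above all FG values, while those of Atf5, Ddit3, Trib3, Psat1 and Phgdh lie below all FG values.

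Asns (NCBI gene 27053, chromosome 6 from 7675165 to 7693209) was at 7.88, 0.856, 2.88 and 1.17 FPKM in FG 93, 94, 95 and 96. In SG 101, 103, 104 and 105 it was at 20.9, 15.5, 13.5 and 29.98 FPKM. Every SG library thus exceeded every FG library, and the FG libraries differed among themselves by up to 9.20-fold against 2.21-fold within SG. The group means were 3.20 ± 3.25 and 19.98 ± 7.35 FPKM (SD, n = 4 each), a ratio of 6.25, and the log2 fold change was 2.55 (SE 0.46, adjusted p = 0.00875 in limma). The lowest value, in FG 94, rested on 79 fragments and the highest, in SG 105, on 2746. Without any 1 library the log2 fold change ranged from 2.25 to 3.01 and the adjusted p from 0.00338 to 0.0262.

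Pancreatic acinar cells express Asns strongly, and a trace of pancreas in a liver sample would add to its level. The summed FPKM of 12 acinar markers was 6.76, 419, 6.89 and 70.7 in FG 93, 94, 95 and 96, and 60.5, 20.1, 23.3 and 8.26 in SG 101, 103, 104 and 105. None of the 12 was called, and a marker below the filter on low values could not be. The largest sum of all was in FG 94, which had the lowest Asns. Within SG the largest sum was in SG 101, second in Asns, and the smallest in SG 105, the highest in Asns. The part of acinar RNA in the level of Asns was not tested. All 8 hepatocyte markers were detected, 3 of them called higher and none lower, with sums of 57745 to 68411 FPKM in FG and 59425 to 76899 in SG. The sums of 6 sinusoidal endothelial markers (81.7 to 101 FPKM in FG, 61.5 to 74.3 in SG, 1 called lower) and of 5 cholangiocyte markers (21.9 to 27.7 in FG, 13 to 19.1 in SG, 1 called lower) did not overlap between the groups. For comparison, 3.73% of all tested genes were called higher and 15.6% lower. As single genes, 26.1% had groups that did not overlap. The ranges of Kupffer cell, stellate cell, lymphocyte and adipocyte markers overlapped. No marker of these lists was at 0 in all libraries. In bulk liver, fewer cells of a type and less RNA per cell cannot be told apart, and the part of the hepatocyte, endothelial and cholangiocyte marker shifts in the results was not tested.

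Among the transcription factors, Atf4 itself (NCBI gene 11911, chromosome 15 from 80255184 to 80257545) was at 58.8, 40.9, 45.5 and 37.4 FPKM in the FG libraries. In SG 101, 103, 104 and 105 it was at 27.3, 49.1, 37.9 and 42.8 FPKM. The groups overlapped, with the highest value in FG 93 and the lowest in SG 101. The log2 fold change was -0.22 (SE 0.19, adjusted p = 0.435 in limma), and it stayed between -0.34 and -0.06 without any 1 library.

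Atf5 (NCBI gene 107503, chromosome 7 from 44812256 to 44816658), a liver-enriched relative of ATF4, had the lowest adjusted p of the 8 tested genes. Its values were 191, 117, 145 and 94.7 FPKM in FG 93, 94, 95 and 96. They were 32.1, 38.5, 34.4 and 60.2 FPKM in SG 101, 103, 104 and 105. All SG values were below all FG values, and the nearest pair was FG 96 and SG 105. The means of 137 ± 41.5 and 41.3 ± 12.9 FPKM (SD, n = 4 each) differed 3.31-fold, and the limma log2 fold change was -1.70 (SE 0.24, adjusted p = 0.00389). Atf5 was 2.53 to 3.24 times as abundant as Atf4 per unit of gene length in FG and 0.786 to 1.41 times in SG, ranges that do not overlap. The RefSeq models of Nup62 and Il4i1b overlap Atf5, and the sources used here do not say whether counting was stranded, so how reads were split between them is uncertain.

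Ddit3 (NCBI gene 13198, chromosome 10 from 127290793 to 127296291) encodes CHOP, the transcription factor linked to cell death in prolonged stress. It was at 2.62, 1.84, 1.90 and 2.51 FPKM in FG and at 1.06, 1.05, 1.63 and 1.24 FPKM in SG, in the same library order as above. All SG values lay below all FG values, by a small margin between FG 94 and SG 104. The log2 fold change was -0.52 (SE 0.13, adjusted p = 0.0237 in limma), and leaving out FG 93, FG 96, SG 103 or SG 105 ended the call (adjusted p up to 0.07). Ddit3 overlaps Mbd6 and Mars1, and Mars1, a methionyl-tRNA synthetase, fell as well.

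Trib3 (NCBI gene 228775, chromosome 2 from 152337425 to 152344060) encodes a pseudokinase that binds ATF4 and AKT and dampens both. Its FG values were 4.47, 3.27, 3.18 and 2.89 FPKM. Its SG values were 2.80, 0.907, 1.70 and 0.730 FPKM, so that SG 101 came close to FG 96 while the other SG libraries were well below. The log2 fold change was -0.87 (SE 0.24, adjusted p = 0.0339 in limma). Only the fit without SG 101 kept that call among those that left out 1 library; without any of the other 7 it was lost (highest adjusted p = 0.0949).

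Nupr1 (NCBI gene 56312, chromosome 7 from 126623246 to 126625470) encodes a small stress-induced chromatin protein. It was at 7.60, 3.36, 7.15 and 2.06 FPKM in FG and at 2.24, 1.14, 1.11 and 1.49 FPKM in SG. FG 93 and FG 95 were high, and the groups overlapped because SG 101 exceeded FG 96. The log2 fold change was -1.17 (SE 0.32, adjusted p = 0.0345 in limma; 26 to 188 fragments per library). Leaving out FG 93, FG 95, SG 103, SG 104 or SG 105 ended the call (adjusted p up to 0.0912). A RefSeq non-coding gene, Gm39087, overlaps Nupr1.

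The serine pathway enzymes, which in the textbook response follow ATF4 together with Asns, were low in this liver. Psat1 (NCBI gene 107272, chromosome 19 from 15905123 to 15925059), the phosphoserine aminotransferase, was at 7.05, 1.101, 4.29 and 1.18 FPKM in FG 93, 94, 95 and 96. In SG it was at 0.440, 0.264, 0.459 and 0.228 FPKM, below every FG library and resting on 22 to 43 fragments. The means of 3.41 ± 2.85 and 0.348 ± 0.119 FPKM (SD, n = 4 each) differed 9.79-fold, and on the log2(FPKM + 1) scale, which compresses low values, the log2 fold change was -1.48 (SE 0.40, adjusted p = 0.033 in limma). It was no longer called when FG 93, FG 95, SG 103, SG 104 or SG 105 was left out (adjusted p up to 0.079).

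Phgdh (NCBI gene 236539, chromosome 3 from 98313171 to 98339969), the dehydrogenase that opens serine synthesis, was at 0.964, 0.356, 0.395 and 0.379 FPKM in FG. In SG it was at 0.341, 0.190, 0.0711 and 0.221 FPKM, all below FG, although SG 101 was close to FG 94. With no filter its log2 fold change was -0.32 (adjusted p = 0.206 in limma) on 5 to 69 fragments per library. Psph, the phosphatase that ends serine synthesis, was at 1.37 ± 0.47 FPKM in FG and 0.810 ± 0.187 in SG (SD, n = 4 each; adjusted p = 0.104 in limma).

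Of the mitochondrial folate enzymes among the 10 genes, Shmt2 (NCBI gene 108037, chromosome 10 from 127517123 to 127522444), the serine hydroxymethyltransferase, was abundant. It was at 96.7, 101, 112 and 107 FPKM in FG and at 126, 99.9, 94.4 and 85.6 FPKM in SG, so the SG libraries lay on both sides of the FG range. The log2 fold change was -0.05 (SE 0.12, adjusted p = 0.798 in limma) and 0.12 after median-ratio scaling. The RefSeq model of Ndufa4l2 overlaps Shmt2. Mthfd2 (NCBI gene 17768, chromosome 6 from 83305704 to 83326011), the methylenetetrahydrofolate dehydrogenase of growing cells, was at 1.73, 0.325, 0.644 and 0.471 FPKM in FG and at 0.205, 0.347, 0.371 and 0.349 FPKM in SG. FG 93 alone stood out, and FG 94 lay within the SG range. With no filter its log2 fold change was -0.39 (adjusted p = 0.364 in limma).

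Whether Asns moved with the other genes was examined as the difference between log2(FPKM + 1) of Asns and of each other gene in the same library. For all 9 genes the 4 SG differences lay above the 4 FG differences. The difference shifted towards Asns by 2.60 log2 units against Shmt2, the smallest shift, by 4.03 against Psat1 and by 4.25 against Atf5, the largest (exact two-sided permutation p = 0.0286 in each of 9 comparisons that share the Asns values, the smallest p that 70 assignments allow). Against Psat1 the difference was -0.45 to 0.14 in FG and 3.32 to 4.66 in SG. On the FPKM scale Asns was 0.671 to 1.12 times the level of Psat1 in the FG libraries and 29.5 to 131 times in the SG libraries. Such a shift was not particular to these genes: relative to Asns, 99.5% of 9866 other tested genes were called.

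**Figure D2:**
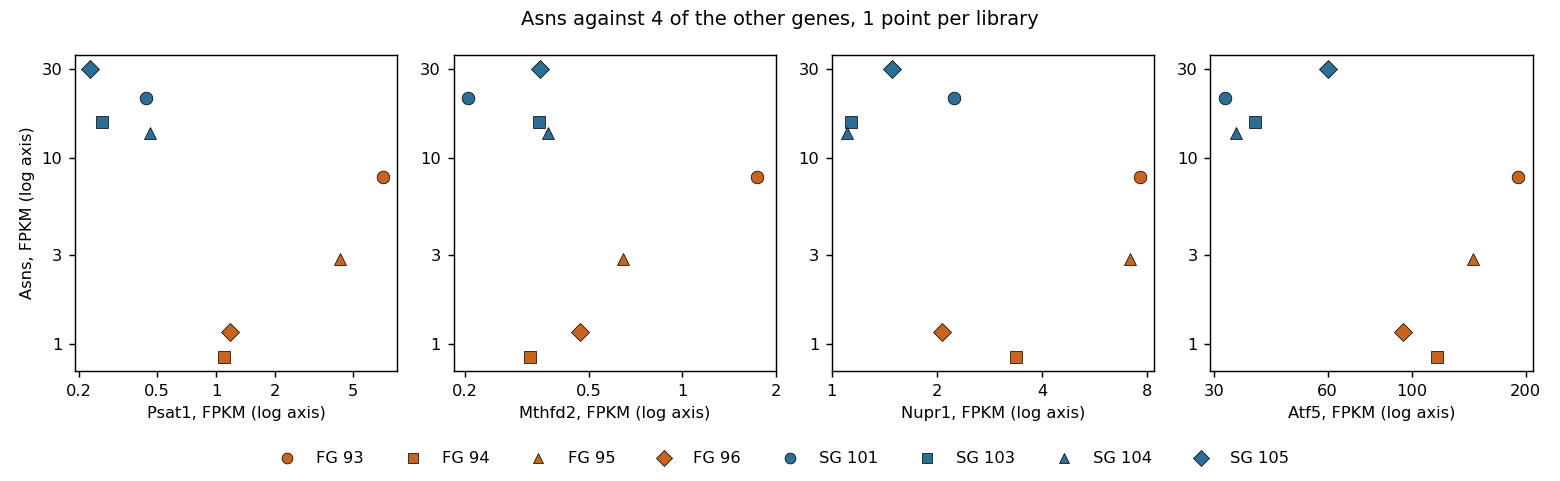
Asns FPKM (vertical, log axis) against Psat1, Mthfd2, Nupr1 and Atf5 FPKM (horizontal, log axes), 1 point per library. In FG (orange) Asns and the other gene are both highest in FG 93 and next in FG 95. The SG libraries (blue) form a separate group with more Asns and less Psat1 and Atf5.

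Within FG, Asns followed several of the other genes from library to library. Asns, Psat1, Phgdh and Mthfd2 shared the descending order FG 93, 95, 96, 94, which 6.60% of tested genes also had. Atf4, Atf5 and Nupr1 shared the order FG 93, 95, 94, 96, which 7.30% of tested genes had. Trib3, Ddit3 and Shmt2 each had another order. FG 93 was the highest FG library in 9 of the 10 genes, Shmt2 being the exception, and in 32.1% of all tested genes. From the lowest to the highest FG library Asns spanned 9.20-fold, Psat1 6.40-fold and Mthfd2 5.34-fold, and Asns over Psat1 spanned only 0.671 to 1.12. Within SG the descending order of Asns was SG 105, 101, 103, 104, and none of the other 9 genes had it, nor did more than 1.45% of tested genes. These orders describe 4 libraries each and carry no test. Some of their steps were near ties: in FG 95, 96 and 94 Phgdh rested on 31, 28 and 26 fragments.

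Upstream of ATF4, transcripts of the eIF2α kinases, the eIF2 subunits and the phosphatase mostly did not pass the test. Of 13 tested members of that list 2 were called lower (none without FG 93, 1 without FG 95, FG 96, SG 103, SG 104 or SG 105) and none higher, near the 15.6% of all tested genes called lower, with a median log2 fold change of -0.14, equal to that of all tested genes. Eif2ak3, the kinase PERK of the endoplasmic reticulum, fell from 4.57 ± 1.16 to 2.35 ± 0.32 FPKM (SD, n = 4 each; log2 fold change -0.71, adjusted p = 0.0178 in limma; 0.0534 without FG 93). Eif2ak4, the kinase GCN2 that senses uncharged tRNA, was at 2.10 ± 0.29 and 1.81 ± 0.18 FPKM (adjusted p = 0.349), and the kinases Eif2ak1 and Eif2ak2 had log2 fold changes of -0.13 and -0.23 without passing. Ppp1r15a, the stress-induced phosphatase subunit GADD34, was at 6.17 ± 0.71 and 5.06 ± 0.59 FPKM (adjusted p = 0.147). None of these transcripts reports the activity of a kinase.

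Among 10 tested leucine zipper proteins that pair with ATF4 or share its sites, 2 fell and 1 rose, where 15.6% and 3.73% of all tested genes did, and after median-ratio scaling 1 rose and none fell. The riser was Creb3l3, a hepatocyte factor anchored in the endoplasmic reticulum, at 121 ± 9.78 and 155 ± 13.2 FPKM (adjusted p = 0.0305 in limma; lost without FG 93, FG 95, SG 103 or SG 104, at most 0.0865). Cebpa, the hepatocyte C/EBP factor, fell from 129 ± 13.2 to 89.0 ± 8.19 FPKM (adjusted p = 0.012 in limma; 0.0507 after median-ratio scaling). Nfe2l2, the oxidative stress factor NRF2, fell from 32.5 ± 5.03 to 20.9 ± 2.90 FPKM (adjusted p = 0.0178; 0.0543 without FG 93). Cebpb was at 53.7 ± 13.5 and 59.4 ± 7.84 FPKM (adjusted p = 0.54). Cebpg, a preferred partner of ATF4, was at 11.7 ± 2.90 and 7.85 ± 1.76 FPKM, with groups that did not overlap and an adjusted p of 0.091.

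Other genes commonly listed as targets of ATF4 or CHOP had called members in both directions. Of 37 found, 24 were tested, of which 6 were called lower, 2 higher and 16 not. Of all tested genes 15.6% were called lower and 3.73% higher. The median of the list was -0.30 against -0.14 for all tested genes, and after median-ratio scaling 2 of the 24 were lower and 4 higher. The 6 lower calls became 2 without FG 95 and 3 without FG 93, SG 103, SG 104 or SG 105, and of the 2 higher calls, Cth and Rwdd3, Rwdd3 was lost without FG 93, FG 95, FG 96, SG 103 or SG 104. Fgf21, the secreted hepatokine, was at 9.86, 5.20, 6.11 and 3.96 FPKM in FG 93, 94, 95 and 96 and at 0.431, 1.39, 2.14 and 2.81 FPKM in SG 101, 103, 104 and 105, without overlap. It fell by 1.47 on the log2 scale (adjusted p = 0.0168 in limma). Cth, the cystathionine gamma-lyase of transsulfuration, rose as Asns did. It was at 61.8, 110, 70.6 and 75.6 FPKM in FG and at 240, 274, 232 and 466 FPKM in SG. Its rise of 1.89 (SE 0.24, adjusted p = 0.00258 in limma) was kept without any 1 library, and both Asns and Cth were highest in SG 105 and lowest of the SG group in SG 104. Within FG the 2 genes differed: Cth was lowest in FG 93, where Asns was highest, and highest in FG 94, where Asns was lowest. Chac1, a glutathione-degrading enzyme, was at 3.72 ± 1.98 and 2.14 ± 0.98 FPKM (adjusted p = 0.242), and Sesn2, a leucine sensor, at 3.58 ± 0.27 and 2.46 ± 0.83 FPKM (adjusted p = 0.101). Gdf15, a stress-induced hormone at 1.01 ± 0.20 FPKM in FG and 0.236 ± 0.286 in SG, and Slc7a11, the cystine carrier at 0.0394 ± 0.0289 and 0.00436 ± 0.00695 FPKM (SD, n = 4 each), lay below the filter.

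The cytosolic aminoacyl-tRNA synthetases, which charge tRNAs with their amino acids and many of which are listed as ATF4 targets, included 12 that fell among 20 tested and none that rose. Of all tested genes 15.6% were called lower and 3.73% higher. The median log2 fold change of the synthetases was -0.42. Median-ratio scaling left 3 that fell, and none rose. On the deposited scale the 12 became 5 without FG 95, 6 without SG 105 and 7 without FG 93, SG 103 or SG 104. Nars, which charges the tRNA of asparagine and so uses the product of ASNS, was at 54.3, 42.5, 46.6 and 45.5 FPKM in FG. It was at 31.1, 30.5, 28.8 and 25.3 FPKM in SG, and every SG library was below every FG library. The log2 fold change of Nars was -0.69 (SE 0.10, adjusted p = 0.00451 in limma; 0.0104 after median-ratio scaling), opposite in sign to that of Asns. Mars1, the methionyl enzyme, fell from 16.1 ± 3.53 to 8.37 ± 1.04 FPKM and Sars, the seryl enzyme, from 18.1 ± 3.27 to 11.1 ± 0.76 FPKM (adjusted p = 0.0082 and 0.0118); both passed after median-ratio scaling and without any 1 library. Dars, the aspartyl enzyme, did not pass, at 30.1 ± 3.45 FPKM in FG and 28.6 ± 1.59 in SG. Of the 13 synthetases with a start window in RefSeq 5 held the motif (38.5%), against 3.26% of the genes in the expression table. The same share was 30% of 30 other ATF4 and CHOP targets and 0 of 21 genes of the ATF6 and XBP1 arms. It was also 0 of 14 serine, glycine and folate enzymes, 0 of 11 mitochondrial chaperones and proteases and 0 of 19 genes of mTORC1 sensing. In between lay 25% of 8 amino acid carriers and 18.2% of 11 leucine zipper proteins. The enzymes around ASNS, Asns included, had 15.4% of 13 and the eIF2α list 9.09% of 11. The target list was made of genes commonly given as targets of ATF4 or CHOP, so its share is no independent result. Many synthetases and most of the carriers are also given as ATF4 targets, so the same limit holds for their shares. Some of the matches in synthetases lie past the transcript start, as in Trib3.

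**Figure D3:**
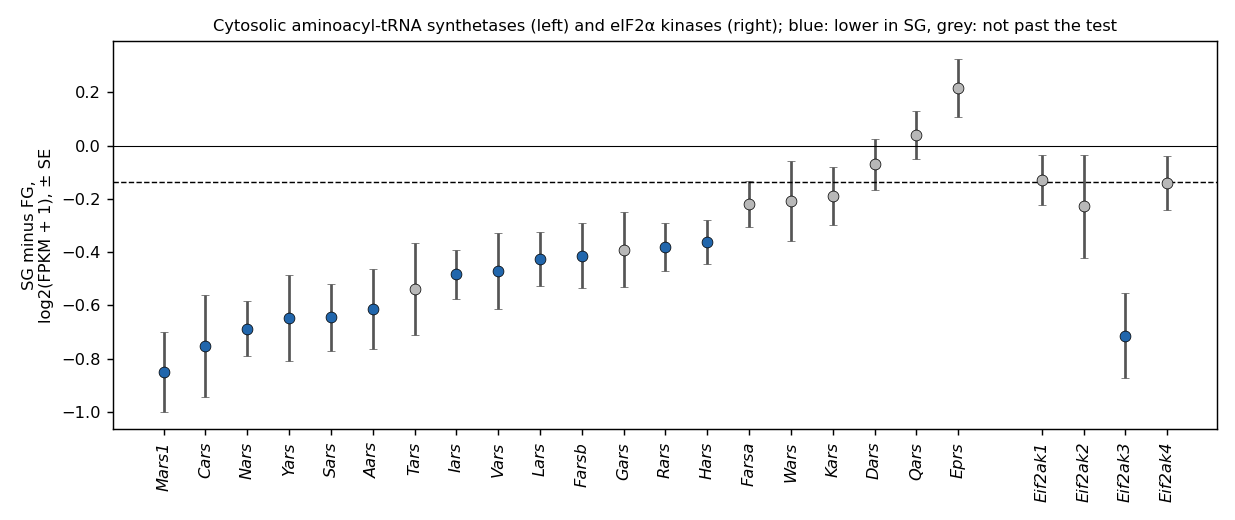
Log2 fold change SG minus FG (vertical axis, log2(FPKM + 1), points with limma SE) of the 20 cytosolic aminoacyl-tRNA synthetases in ascending order and of 4 eIF2α kinases. Blue marks the 12 synthetases and Eif2ak3 called lower, grey marks genes that did not pass, and the dashed line is the median of all tested genes, -0.14.

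Around the reaction of ASNS, enzymes of asparagine, aspartate, glutamine and glutamate moved in both directions. Of 15 tested, Asns included, 4 rose and 3 fell (under median-ratio scaling, 6 and 1), and their median was 0.004. Of all 9867 tested genes 3.73% were called higher and 15.6% lower, and 545 and 499 genes were after median-ratio scaling. Gpt, the alanine aminotransferase, rose from 116 ± 26.1 to 254 ± 55.8 FPKM. Ass1, which joins aspartate to citrulline in the urea cycle, rose from 1144 ± 324 to 2797 ± 971 FPKM (adjusted p = 0.00819 and 0.0167 in limma). Gls2, the liver glutaminase, rose by 0.87 on the log2 scale (adjusted p = 0.0184; 0.0511 without FG 93). Aspg, an asparaginase, fell from 64.5 ± 3.79 to 47.2 ± 2.30 FPKM (adjusted p = 0.00835, and 0.0726 after median-ratio scaling). Cad, which uses glutamine and aspartate for pyrimidine synthesis, fell from 1.81 ± 0.19 to 0.993 ± 0.075 FPKM (adjusted p = 0.00875). Glul, glutamine synthetase, at 505 ± 45.1 and 366 ± 103 FPKM, and Got2, the mitochondrial aspartate aminotransferase, at 248 ± 16.1 and 250 ± 38.1 FPKM, did not pass.

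In serine, glycine and folate metabolism 2 of 12 tested genes rose and 1 fell, where 3.73% and 15.6% of all tested genes did. The 1 that fell, Psat1, could be tested only as a gene higher in FG. Under median-ratio scaling 2 rose and none fell. The median was 0.12. The risers were Aldh1l1, the cytosolic formyltetrahydrofolate dehydrogenase, and Gldc, the glycine decarboxylase. Aldh1l1 rose from 281 ± 39.7 to 572 ± 138 FPKM and Gldc from 19.1 ± 3.05 to 42.4 ± 13.1 FPKM (adjusted p = 0.00801 and 0.0103 in limma). Of the 12, 9 did not pass, among them Gcsh, at 66.9 ± 3.67 FPKM in FG and 68.8 ± 4.7 in SG (adjusted p = 0.757 in limma). Sds, serine dehydratase, averaged 127 ± 28.8 FPKM in FG and 237 ± 151 in SG without passing (adjusted p = 0.172). Of 7 tested amino acid carriers 2 fell and 2 rose, where 15.6% and 3.73% of all tested genes did. The fall of Slc3a2, the heavy chain shared by several carriers, and the rise of Slc43a1, a leucine carrier, were not stable. They were lost in 7 and 4 fits without 1 library (adjusted p up to 0.114 and 0.0855 in limma). Slc6a9, a glycine carrier, was at 34.0, 17.95, 22.2 and 17.9 FPKM in FG and at 7.58, 8.93, 12.01 and 7.14 FPKM in SG, without overlap (log2 fold change -1.25, adjusted p = 0.00803). Slc38a4, a liver carrier of neutral and cationic amino acids, rose by 0.59 (adjusted p = 0.0275; lost without FG 93, FG 95, SG 104 or SG 105, at most 0.0783). Slc38a2, the adaptive carrier SNAT2, was at 34.3 ± 4.08 and 37.2 ± 13.9 FPKM (adjusted p = 0.905).

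The other arms of the unfolded protein response, those of ATF6 and of IRE1 with XBP1, had 13 of 25 tested genes lower and none higher, with a median of -0.53, and 8 lower and none higher after median-ratio scaling. Of all tested genes 15.6% were called lower and 3.73% higher. Without SG 101 the 13 became 20, in a fit where the lower calls over all tested genes went from 1544 to 1896. Xbp1, whose mRNA IRE1 splices, was at 129, 108, 95.9 and 86.2 FPKM in FG 93, 94, 95 and 96. It was at 59.97, 51.4, 39.2 and 31.6 FPKM in SG 101, 103, 104 and 105, without overlap. Its log2 fold change was -1.21 (adjusted p = 0.00675 in limma). Ern1, which encodes IRE1α, fell by 1.03 (adjusted p = 0.00319), and Derl2, a channel component for degradation of misfolded protein, by 0.87 (adjusted p = 0.00235). Hspa5, the chaperone BiP, fell from 181 ± 15.6 to 117 ± 11.3 FPKM (adjusted p = 0.00541). Hsp90b1, the chaperone GRP94, was at 213 ± 32.3 and 209 ± 17.6 FPKM (adjusted p = 0.938). Mitochondrial chaperones and proteases linked to ATF5 mostly did not pass. Of 13 tested, Hspd1 rose (144 ± 11.6 to 185 ± 15.4 FPKM, adjusted p = 0.0297), Lonp1 fell (63.0 ± 5.54 to 47.8 ± 5.27 FPKM, adjusted p = 0.0314) and 11 did not pass. Both calls were lost in at least 5 fits without 1 library, and after median-ratio scaling 2 of the 13 were higher and none lower. Of 15 tested genes of amino acid sensing by mTORC1 4 fell, where 15.6% of all tested genes did, and 1 of the 4, the folliculin gene Flcn, lost its call in all 8 fits without 1 library. Of the others, Tfe3, a lysosomal transcription factor, fell from 6.61 ± 0.66 to 4.38 ± 0.22 FPKM and Fnip2, a folliculin partner, from 3.42 ± 0.41 to 1.68 ± 0.36 FPKM (adjusted p = 0.00962 and 0.00735). The median of that list was -0.27, and 2 genes were lower after median-ratio scaling.

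**Figure D4:**
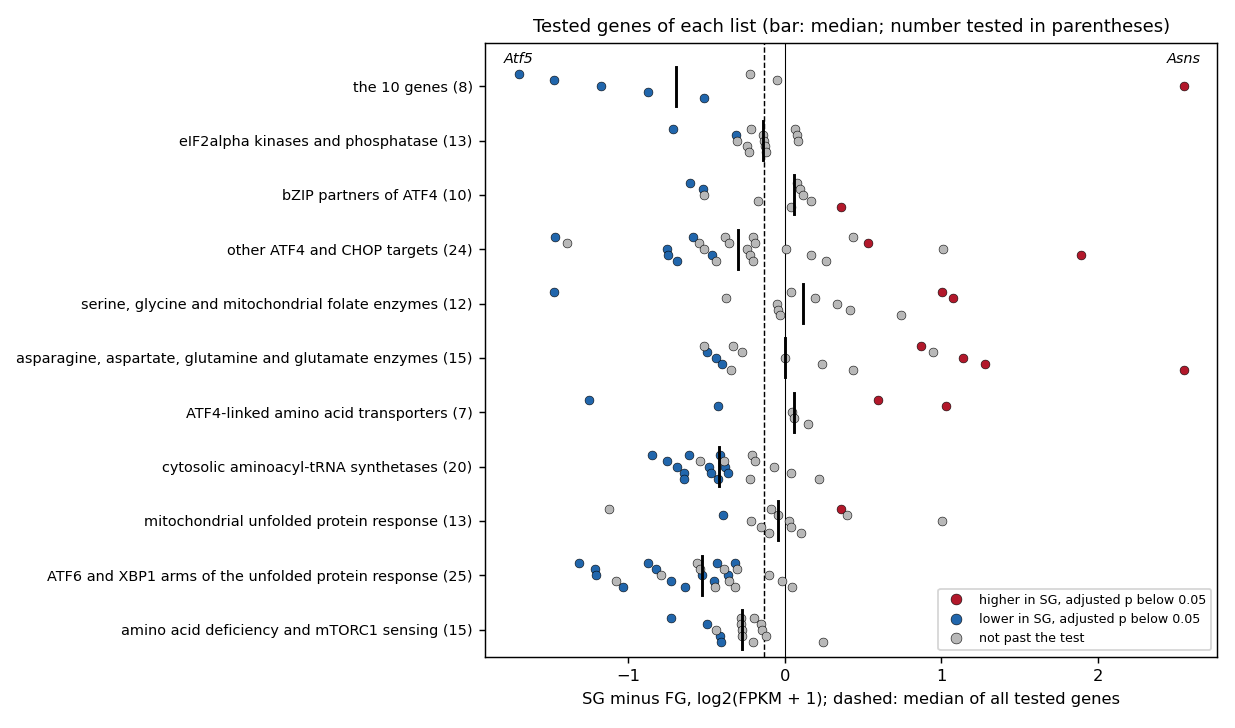
Log2 fold change SG minus FG (horizontal axis, log2(FPKM + 1)) of every tested gene in the 10 genes and the 10 further lists, with a bar at each median and a dashed line at the all-gene median of -0.14. Red and blue points are called higher and lower at adjusted p below 0.05. Asns, at 2.55, lies farthest right. The synthetases (median -0.42), the ATF6 and XBP1 arms (-0.53), the eIF2α list (-0.14) and the mTORC1 sensing list (-0.27) hold no red point. Of all tested genes 3.73% were called higher.

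Across 8 libraries, the profiles nearest to Asns were found by the mean absolute difference of log2(FPKM + 1) after subtracting each gene's own mean. Tested genes with names starting with LOC, made of Gm and a number, or ending in Rik were left out of the search. The nearest were Enho (0.56), Cyp4a32 (0.67), Cth (0.67), Pdk4 (0.68) and Cyp2b10 (0.71). The median was 1.36 over the genes searched, and the other tested genes of the 10 had 1.34 to 2.12. Enho, which encodes adropin, had FG values of 0.461 to 0.669 FPKM and SG values of 8.17 to 12.4 FPKM. Enho passed the filter through its 4 SG libraries alone, as did Cyp2b10, so either could be tested only as a gene higher in SG. The 2.81 log2 units of Enho are near the 2.55 of Asns, while it lacked the spread of Asns among FG libraries. Pdk4, the pyruvate dehydrogenase kinase, shared the high value of FG 93 (5.55 FPKM against 1.11 to 1.51 in the other FG libraries), but its call (adjusted p = 0.0498 in limma) was lost in 6 fits without 1 library, at most 0.121. Cyp4a32 and Cyp2b10 have close paralogs, so their reads are uncertain. In the same search the profiles nearest to Atf5 were Pnpla3, a lipid droplet acyltransferase and lipase (0.20), Fgf21 (0.22) and Cd36, a fatty acid receptor (0.22). The median over the genes searched was 0.79. Pnpla3 was at 1.28 to 4.56 FPKM in FG and at 0.0266 to 0.0568 in SG, so it passed the filter through FG alone and could be tested only as a gene higher there, and Cd36 at 16.6 to 36.8 and 5.54 to 10.98 FPKM. Of the 7 other tested genes among the 10, Nupr1 (0.38) and Psat1 (0.44) were nearest to Atf5 and Asns (2.12) was farthest.

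The 8 libraries held 36545128 to 41977438 counted fragments. Of the 8 tested genes among the 10, 5 had groups that did not overlap in either direction, against 26.1% of all tested genes. Psat1, 1 of the 5, passed the filter through its FG libraries alone, so its groups could not overlap. The series text counts 4 per group but does not say that these are separate animals, so a p-value here reflects only how much these libraries vary, which may be technical.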

How the data were processed

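Liver mRNA libraries (4 FG, 4 SG) were read as 150 bp pairs, per the labels' protocols. The submitters' processing notes name fastp, HISAT2, HTSeq and DESeq2 with builds GRCm38 and mm10, without versions, and the series text credits the alignment to HISAT2. Whether strand was used is not given in the sources. The deposited values are FPKM, made by the authors for 21358 genes; 0 columns were unmatched. Genes with at least 1 FPKM in at least 4 libraries (9867) were fitted as log2(FPKM + 1) with limma 3.58.1 in R 4.3.3 (group as the only term, mean-variance trend, two-sided). Benjamini-Hochberg adjustment covered every tested gene, and genes were called below 0.05. Differences are given as SG minus FG and are compressed for low genes by the added 1. The fit was tested on simulated data. The 10 genes, the 10 lists and the marker lists were chosen with earlier results of these data known.

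Named genes were the 10 genes, of each list up to 6 called genes with the smallest p and up to 3 uncalled ones with the highest mean, 16 listed genes whatever their values, the 5 profiles nearest Asns and the 3 nearest Atf5. The nearest profiles were searched only among tested genes with an official symbol. Because each gene's FPKM is a whole multiple of the value of 1 fragment, fragment counts could be recovered, whole within 0.02 fragments for all but 1 gene, with library sums within 0.0356% of the totals. They gave the depths and limma voom fits, the latter chosen after seeing the data. Positions, overlaps and sequences are those of RefSeq for GRCm38.p6. All 10 genes were matched to RefSeq by NCBI gene number. Alternatives changed the pseudocount (to 0.1), the filter (to none, or to a mean of 5 FPKM), the scaling, the variance trend, or left out 1 library.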

Additional observations from a re-analysis of the deposited data

Results flagged for a closer look

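Of 20 groups of 4 libraries examined (10 genes, FG and SG), 2 held a library whose gap to its nearest neighbour exceeded Dixon's 95% critical value for its share of the group's range; chance flags about 1 in 20 groups. Phgdh was at 0.964 FPKM in FG 93 against 0.356 to 0.395 FPKM in the other FG libraries, a gap of 0.937 of the range. FG 93 was also the highest FG library of Asns, Psat1 and Mthfd2. Mthfd2 was at 0.205 FPKM in SG 101 against 0.347 to 0.371 FPKM in the other SG libraries, a gap of 0.854 of the range, on 19 fragments against 30 to 33.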

How the results depend on the processing

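The rise of Asns and the fall of Atf5 kept their direction and their call under every setting run: pseudocount 0.1, no filter, a mean of at least 5 FPKM, median-ratio scaling, quantile normalization, no variance trend, each library left out, and limma voom on recovered fragments. Of the 10 genes, the 5 called lower became 1 with no filter, after median-ratio scaling and after quantile normalization. They became 3 with voom on the same genes or with a filter of 80 fragments in all. Leaving out 1 library gave 1 to 5. With a mean of at least 5 FPKM only Atf5 was called lower, because Ddit3, Trib3, Psat1 and Nupr1 lay below that filter and were not tested. Genes called higher (368) and lower (1544) were 219 and 914 with no filter; lower calls were 499 after median-ratio scaling and 616 after quantile normalization. Leaving out 1 library gave 181 (without FG 93) to 467 (without SG 101) higher and 653 to 1896 lower, the same libraries setting both ends, and voom on the same genes gave 348 and 1498. Of the 143 tested genes of the lists outside the 10, 11 were called higher (4 with no filter) and 43 lower (17 after median-ratio scaling, 27 after quantile normalization); leaving out 1 library gave 5 to 11 and 24 to 49. With a mean of at least 5 FPKM, 3 of the other genes remained to be set against Asns instead of 7, because fewer passed that filter. The causes of the other shifts were not tested. With voom and the filter of 80 fragments, chosen after seeing the data, Phgdh was at -1.35 log2 units (adjusted p = 0.155) and Mthfd2 at -1.04 (adjusted p = 0.267). No paired analysis was possible because the groups share no replicate number. Psat1, Phgdh, Mthfd2 and Nupr1 rested on at most 55 fragments in each SG library, which limits what these libraries show of them.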
